A study of Mus musculus with 9 samples.

Results

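The genes described here are 9 enzymes of fatty acid synthesis, elongation and desaturation, Acly, Acaca, Fasn, Elovl5, Elovl6, Scd1, Scd2, Fads1 and Fads2, together with Srebf1, the transcription factor gene known for driving them. They were chosen by name, as the rows whose Ensembl identifiers map to these 10 symbols, out of 55335 genes in the deposited tables. All 10 passed the filter on low counts, which 13611 genes passed. The cells were D2A1-d, a mouse breast carcinoma line, in 3 groups of 3 samples labelled as biological replicates. NTC cells were transduced with a non-targeting control and carry the genotype label WT. The shMed1 #2 and shMed1 #4 cells were each transduced with a different short hairpin RNA against Med1, the Mediator subunit through which nuclear receptors contact the transcription machinery. All 9 samples were of 1 line, grown in medium with fetal bovine serum and antibiotics, and no further treatment is given. The labels do not say whether the transduced cells were clones or pools, how long after transduction they were taken, or what separated the replicates, so the p-values measure the spread between these samples. The comparisons ask how the mRNA of each gene differed between each hairpin and NTC, and between the hairpins.

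Cytosolic fatty acid synthesis starts from citrate, which ATP citrate lyase (Acly) splits to acetyl-CoA. Acetyl-CoA carboxylase (Acaca) turns this into malonyl-CoA, fatty acid synthase (Fasn) builds palmitate from it, elongases of the Elovl family lengthen the chain in the endoplasmic reticulum, and desaturases insert double bonds, the stearoyl-CoA desaturases Scd1 and Scd2 in saturated chains and Fads1 and Fads2 in polyunsaturated ones. SREBP-1, the product of Srebf1, is anchored in the endoplasmic reticulum by Insig proteins, and Scap escorts it to its cleavage. Its released part is known to activate most of these genes, in tumour cells as in liver.

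Library totals ranged from 8123918 to 8879982 counts. Levels are given as CPM, counts divided by the scaled library total, on which scale 3 counts are worth 0.344 to 0.363 CPM. The members' own counts ran from 525 for Srebf1 in shMed1 #2 replicate 2 to 8359 for Scd2 in NTC replicate 3. Med1 itself was at 79.8 to 87.5 CPM in NTC, 22.1 to 25.2 CPM with shMed1 #2 and 25.0 to 26.6 CPM with shMed1 #4, so both hairpin groups lay below NTC without overlap. Of 8 epithelial markers, Epcam and Krt5 were at 0 counts in all 9 libraries and 2 (Krt8 and Krt18) passed the filter. The summed level of all 8 was 56.9 to 58.6 CPM in NTC, 19.9 to 22.8 with shMed1 #2 and 41.6 to 52.1 with shMed1 #4. Markers of adipocytes, cells rich in these enzymes, were at 3 counts or fewer in every library for all 8 genes, with Adipoq at 0. The summed fibroblast markers, of which 2 of 5 passed the filter and Lum was at 0, were at 91.5 to 99.1 CPM in NTC, 52.1 to 54.6 in shMed1 #2 and 67.4 to 71.0 with shMed1 #4. The summed levels of the 8 leukocyte markers were 16.03 to 19.0, 13.5 to 15.4 and 13.7 to 15.4 CPM in the same order. Only 2 of these markers passed the filter, and 0 were called with either hairpin. Their log2 fold changes were -0.24 and -0.02 with shMed1 #2, and -0.25 and 0.07 with shMed1 #4. Of the 5 endothelial markers none passed the filter, and their sums, 0.579 to 0.848, 0.461 to 1.28 and 0.464 to 1.32 CPM, overlapped. The epithelial and fibroblast sums were lower with both hairpins without overlap, as most members were. Leukocyte sums were also lower without overlap, but by a narrow margin and with 0 markers called. The part of these sums in the results below was not tested. In bulk RNA, fewer cells of a type and less RNA per cell cannot be told apart.

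The promoter windows of 4 members are shown as examples: Fasn and Acly were lower with both hairpins, while Elovl5 and Elovl6 were each called with 1 hairpin. Each window is 300 bases, 250 before and 50 after the gene's start, read 5′ to 3′ on the gene's own strand from RefSeq on GRCm38.p6, and a window was found for 7 of the 10 members (not for Scd1, Scd2 and Fads1). Capitals mark matches, on either strand, to 3 motifs. The CCAAT box was searched as CCAAT, the GC box as GGGCGG, and the E-box as CACGTG. A match on the opposite strand appears as its reverse complement. The windows are chr11:120824498-120824797 on the minus strand for Fasn, chr11:100527951-100528250 on the minus strand for Acly, chr9:77917115-77917414 on the plus strand for Elovl5 and chr3:129532136-129532435 on the plus strand for Elovl6.
Fasn: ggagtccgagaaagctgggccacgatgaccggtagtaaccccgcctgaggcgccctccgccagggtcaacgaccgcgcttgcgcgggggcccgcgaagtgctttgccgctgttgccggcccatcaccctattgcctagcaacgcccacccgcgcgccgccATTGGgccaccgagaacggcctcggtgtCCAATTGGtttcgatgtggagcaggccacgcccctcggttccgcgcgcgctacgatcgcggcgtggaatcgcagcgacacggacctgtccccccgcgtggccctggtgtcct
Acly: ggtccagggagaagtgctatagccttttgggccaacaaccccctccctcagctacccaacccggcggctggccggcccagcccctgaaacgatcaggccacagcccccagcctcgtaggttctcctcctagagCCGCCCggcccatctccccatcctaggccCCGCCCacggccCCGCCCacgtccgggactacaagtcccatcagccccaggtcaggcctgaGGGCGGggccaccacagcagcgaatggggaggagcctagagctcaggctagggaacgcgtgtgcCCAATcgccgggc
Elovl5: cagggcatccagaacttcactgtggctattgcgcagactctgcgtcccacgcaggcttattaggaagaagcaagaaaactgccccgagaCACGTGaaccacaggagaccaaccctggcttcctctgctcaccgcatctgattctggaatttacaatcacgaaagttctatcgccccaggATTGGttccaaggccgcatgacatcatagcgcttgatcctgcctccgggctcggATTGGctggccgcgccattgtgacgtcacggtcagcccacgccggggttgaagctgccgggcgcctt
Elovl6: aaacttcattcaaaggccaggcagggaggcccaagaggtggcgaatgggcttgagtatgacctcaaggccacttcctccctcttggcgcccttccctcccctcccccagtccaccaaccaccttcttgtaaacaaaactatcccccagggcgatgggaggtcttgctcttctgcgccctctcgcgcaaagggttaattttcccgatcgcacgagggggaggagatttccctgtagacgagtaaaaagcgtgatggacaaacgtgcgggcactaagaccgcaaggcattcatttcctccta

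Counting the first transcribed base as 1, the CCAAT matches of Fasn started at -90, -62 and -59, and those at -62 and -59 share 2 bases. In Acly the GC boxes started at -117, -88, -76 and -27 and a CCAAT match at 38, inside the transcribed part. Elovl5 had the E-box at -161 and CCAAT matches at -71 and -17, and the Elovl6 window held none of these motifs. Counting alternative starts, the 7 matched members had 9 windows, several of them of Srebf1. The Acaca window, chr11:84195188-84195487, lies inside the annotated gene, which starts at 84129672. CCAAT was in 5 of the 9 windows, from 4 members, against 37.4% of 32851 RefSeq windows of the same length. GGGCGG was in 4 of 9, from 3 members, against 35.7%, and CACGTG in 1 of 9, against 7.15%. The sterol response element TCACNCCAC was in 0 of 9 and in 1.24% of all windows. These matches describe the letters in short windows and say nothing of binding.

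Most of these mRNAs were lower when Med1 was reduced. With shMed1 #2, 9 of the 10 fell, and Elovl5 did not pass the test; of all 13611 tested genes 43.7% were called, 21.9% lower and 21.8% higher. With shMed1 #4, 9 of the 10 fell, and Elovl6 did not pass; of all tested genes 28.2% were called, 14.1% lower and 14% higher. The 8 genes called lower with both hairpins were Acly, Acaca, Fasn, Scd1, Scd2, Fads1, Fads2 and Srebf1, and 10.1% of all tested genes were called lower with both. The median log2 fold change over the 10 was -0.52 with shMed1 #2 and -0.31 with shMed1 #4, against -0.00 and 0.00 over all tested genes. Both comparisons use the same 3 NTC libraries, so they are not independent of each other. The sizes differed widely within the group, from -1.86 for Scd2 to -0.22 for Fads2 among the genes called with shMed1 #2.

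**Figure D1:**
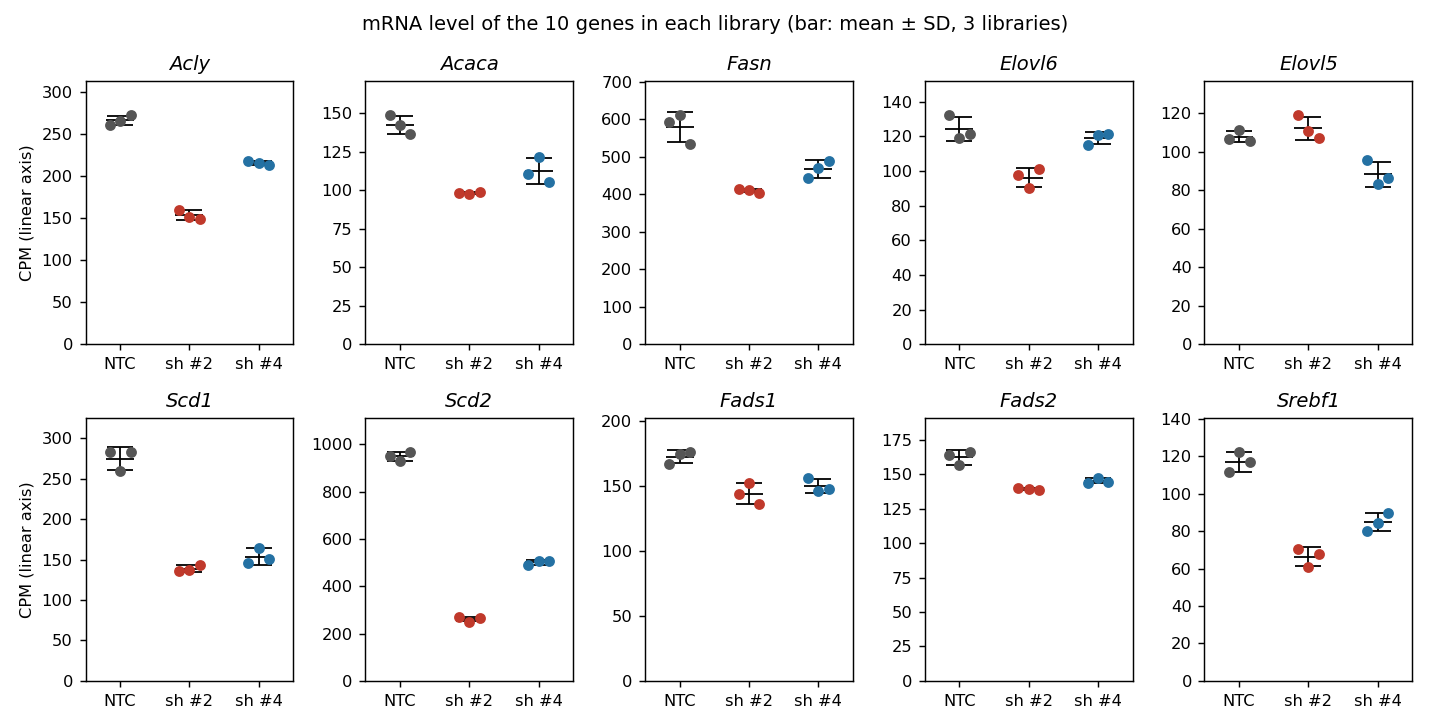
mRNA level of each of the 10 genes in CPM on a linear axis, with 1 point per library and black marks for the mean ± SD of the 3 libraries of NTC, shMed1 #2 and shMed1 #4. Every hairpin library lies below every NTC library, apart from Elovl5 with shMed1 #2 and Elovl6 with shMed1 #4, where the groups overlap. The share of all tested genes whose groups separate in this way is not given here.

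Acly, at the head of the pathway (chromosome 11, 100476353 to 100528000, minus strand), was at 261, 265 and 272 CPM in the NTC libraries, at 159.9, 151 and 148 CPM with shMed1 #2, and 217, 216 and 213 CPM in shMed1 #4 cells. The 3 groups formed 3 separate bands, NTC highest and shMed1 #2 lowest. In edgeR's quasi-likelihood test Acly fell by 0.80 on the log2 scale with shMed1 #2 (SE 0.0449, adjusted p = 3.15e-27) and by 0.31 with shMed1 #4 (SE 0.0436, adjusted p = 1.96e-08), which is 42.4% and 19.1% lower. The hairpins differed by 0.49 (95% interval 0.40 to 0.58, adjusted p = 4.6e-15), the second widest gap among the members.

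Acaca, which makes malonyl-CoA and sets the pace of synthesis (chromosome 11, 84129672 to 84401651, plus strand), was at 149, 142 and 137 CPM in NTC. With shMed1 #2 the values were 97.9, 97.6 and 99.1 CPM, and with shMed1 #4 111, 122 and 105 CPM, so both hairpin groups lay below NTC and shMed1 #2 lay below shMed1 #4. Acaca fell by 0.54 (SE 0.0525, adjusted p = 1.07e-14) and by 0.34 (SE 0.0518, adjusted p = 1e-07), which is 31.1% and 21.1% lower. The gap between the hairpins was 0.20 (adjusted p = 0.00359), and without shMed1 #4 replicate 2, the highest of its group, it was no longer called (adjusted p = 0.082). Of the 50-base stretches in the longest annotated transcript of Acaca, 52.6% also occur in Gm5182, a processed pseudogene on chromosome 12, and 42.8% of the 100-base stretches do. Reads from those stretches could be split or dropped in counting, which makes the level of Acaca uncertain; Gm5182 itself held 5 to 13 counts per library and was not called with either hairpin (-0.10 and 0.14).

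Fasn, the multi-domain synthase that releases palmitate (chromosome 11, 120805846 to 120824547, minus strand), was second to Scd2 in CPM in NTC and with shMed1 #4, and first with shMed1 #2. Its levels were 593, 609.9 and 534 CPM in NTC, 414, 411 and 404 CPM with shMed1 #2, and 442, 469.8 and 489 CPM with shMed1 #4. The hairpin libraries were all below the lowest NTC library, NTC replicate 3, and the shMed1 #2 libraries were all below those of shMed1 #4. Fasn fell by 0.50 (SE 0.0428, adjusted p = 6.44e-17) and by 0.31 (SE 0.0425, adjusted p = 8.34e-09), or 29.3% and 19.3%. The difference between hairpins was 0.19 (95% interval 0.10 to 0.28, adjusted p = 0.000366). No 50-base stretch of the longest transcript of Fasn or of Acly occurs in a transcript of another annotated gene.

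Each elongase was called against NTC with 1 of the 2 hairpins. Elovl6 lengthens the palmitate that Fasn makes to stearate (chromosome 3, 129532355 to 129638495, plus strand). It was at 132, 119 and 121 CPM in NTC, at 97.6, 90.0 and 101 CPM with shMed1 #2, and 115, 121 and 121 CPM in the libraries with shMed1 #4. With shMed1 #2 all 3 libraries lay below NTC, while with shMed1 #4 2 of the 3 lay inside the NTC range. Elovl6 fell by 0.37 with shMed1 #2 (SE 0.0535, adjusted p = 1.25e-08), and its value with shMed1 #4 was -0.06 (95% interval -0.17 to 0.04, adjusted p = 0.413). The difference between hairpins passed the test (0.31, 95% interval 0.20 to 0.41, adjusted p = 3.5e-06). An antisense gene, Gm35986 (129527467 to 129532388), overlaps only the start of Elovl6 and held at most 1 count in a library.

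Elovl5 elongates polyunsaturated chains in series with Fads2 and Fads1 (chromosome 9, 77917364 to 77984519, plus strand). Its levels were 107, 111 and 105 CPM in NTC, 119, 111 and 107 CPM with shMed1 #2, and 95.4, 83.0 and 86.4 CPM with shMed1 #4. The shMed1 #2 libraries overlapped NTC, and the shMed1 #4 libraries were below all 6 others. Elovl5 fell by 0.29 with shMed1 #4 (SE 0.0558, adjusted p = 2.34e-05), and its value with shMed1 #2 was 0.06 (95% interval -0.05 to 0.17, adjusted p = 0.406). It was the 1 member lower with shMed1 #4 than with shMed1 #2 (-0.35, 95% interval -0.46 to -0.24, adjusted p = 5.06e-07). On the mean of both hairpins Elovl5 was at -0.11 (adjusted p = 0.0457), a call that was lost in 10 of 17 alternative settings, with adjusted p-values from 0.00711 to 0.211 over all 17; leaving out NTC replicate 2 gave the highest of these.

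The stearoyl-CoA desaturases fell most. Scd2, the form known from brain and from developing and proliferating tissue (chromosome 19, 44293674 to 44306864, plus strand), had the highest CPM of the members in NTC and with shMed1 #4. Its levels were 949, 930.0 and 968 CPM in NTC, 268, 251 and 267 CPM with shMed1 #2, and 489, 508 and 509 CPM with shMed1 #4. The bands were far apart, with the highest shMed1 #2 library well under the lowest shMed1 #4 library and that group well under NTC. This is 72.4% lower with shMed1 #2 (SE of the log2 change 0.0414, adjusted p = 6.62e-55) and 47.1% lower with shMed1 #4 (SE 0.0396, adjusted p = 6.39e-34). Ordered from the most lowered, Scd2 stood at the 1.21 percentile of all tested genes with shMed1 #2 and at the 2.06 percentile with shMed1 #4. The gap between the hairpins, 0.94 (95% interval 0.86 to 1.02, adjusted p = 4.08e-33), was the widest among the members.

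Scd1, the form that dominates in liver and fat (chromosome 19, 44394455 to 44407879, minus strand), was at 283, 259 and 283 CPM in NTC. With shMed1 #2 the values were 136, 137 and 143 CPM, and with shMed1 #4 145, 165 and 151 CPM. Both hairpin groups lay far below NTC and close to each other, and their ranges did not overlap. Scd1 was 49.5% lower with shMed1 #2 (adjusted p = 1.41e-31) and 44.2% lower with shMed1 #4 (adjusted p = 7.21e-27). The gap between the hairpins was 0.15 (95% interval 0.05 to 0.24, adjusted p = 0.0212), and it was not called with DESeq2 (adjusted p = 0.0707) or without shMed1 #2 replicate 1 (0.0779), shMed1 #2 replicate 2 (0.0806) or shMed1 #4 replicate 2 (0.23).

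The balance between the 2 paralogs also differed between the groups. Per kilobase of exon, Scd2 made up 75.0% to 76.3% of the sum of Scd1 and Scd2 in the NTC libraries, 62.2% to 63.8% with shMed1 #2 and 73.4% to 75.2% with shMed1 #4. The shMed1 #2 libraries lay below all others, and those of shMed1 #4 overlapped NTC. The mean share was 75.6% ± 0.639 (SD, n = 3), 62.8% ± 0.861 and 74.6% ± 1.00 in the same order. No test was made of this share. The 2 genes share few stretches with each other or with the other Scd genes: 4.66% of the 50-base stretches in the longest transcript of Scd1 and 4.01% of those of Scd2 occur in another annotated gene. The remaining paralogs were low. Scd3 was at 6.58 CPM in NTC (0.22 and -0.10, adjusted p = 0.305 and 0.726) and Scd4 at 1.23 CPM (-0.98 and -0.07, adjusted p = 0.0745 with shMed1 #2).

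The front-end desaturases Fads1 and Fads2 had the smallest falls among the members called with both hairpins. Fads2 catalyses the first desaturation of dietary polyunsaturated chains (chromosome 19, 10062765 to 10101746, minus strand). It was at 164, 156 and 166 CPM in NTC, at 139.9, 139 and 139 CPM with shMed1 #2, and 144, 148 and 145 CPM in the libraries with shMed1 #4. The groups did not overlap, and the 3 shMed1 #2 libraries were nearly equal. Fads2 fell by 0.22 (SE 0.0474, adjusted p = 6.6e-05) and by 0.16 (SE 0.0472, adjusted p = 0.00672), or 14.2% and 10.4%.

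Fads1, which acts after the Elovl5 step (chromosome 19, 10182888 to 10196877, plus strand), was at 167, 175 and 176 CPM in NTC, at 144, 152 and 136 CPM with shMed1 #2, and 157, 146 and 148 CPM in the libraries with shMed1 #4. Every hairpin library was below every NTC library, and the hairpin groups overlapped. Fads1 fell by 0.26 (SE 0.0482, adjusted p = 4.22e-06) and by 0.20 (SE 0.0481, adjusted p = 0.000573), or 16.6% and 13.1%. For both genes the difference between hairpins did not pass the test: it was 0.06 for Fads1 (95% interval -0.04 to 0.16, adjusted p = 0.413) and 0.06 for Fads2 (95% interval -0.03 to 0.16, adjusted p = 0.374). The ratio of Fads2 to Fads1 per kilobase was 1.37 ± 0.0657 (SD, n = 3) in NTC, 1.41 ± 0.0778 with shMed1 #2 and 1.41 ± 0.0677 with shMed1 #4, and the ranges overlapped.

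Srebf1, the regulator (chromosome 11, 60199089 to 60222581, minus strand), was at 112, 122 and 117 CPM in NTC, at 70.5, 61.0 and 68.0 CPM with shMed1 #2, and 80.3, 84.5 and 89.7 CPM in the libraries with shMed1 #4. The 3 groups did not overlap, with shMed1 #2 lowest. Its mRNA was 43.2% lower with shMed1 #2 (SE of the log2 change 0.0583, adjusted p = 2.26e-21) and 27.5% lower with shMed1 #4 (SE 0.0565, adjusted p = 1.27e-10), and the hairpins differed by 0.35 (95% interval 0.23 to 0.47, adjusted p = 2.58e-06). The gene-level counts do not separate the SREBP-1a and SREBP-1c transcripts, which start at different first exons. Rai1 overlaps Srebf1 on the opposite strand, and whether the authors counted by strand is unknown here; Rai1 itself was at 0.02 and 0.13 (adjusted p = 0.804 and 0.0966).

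**Figure D2:**
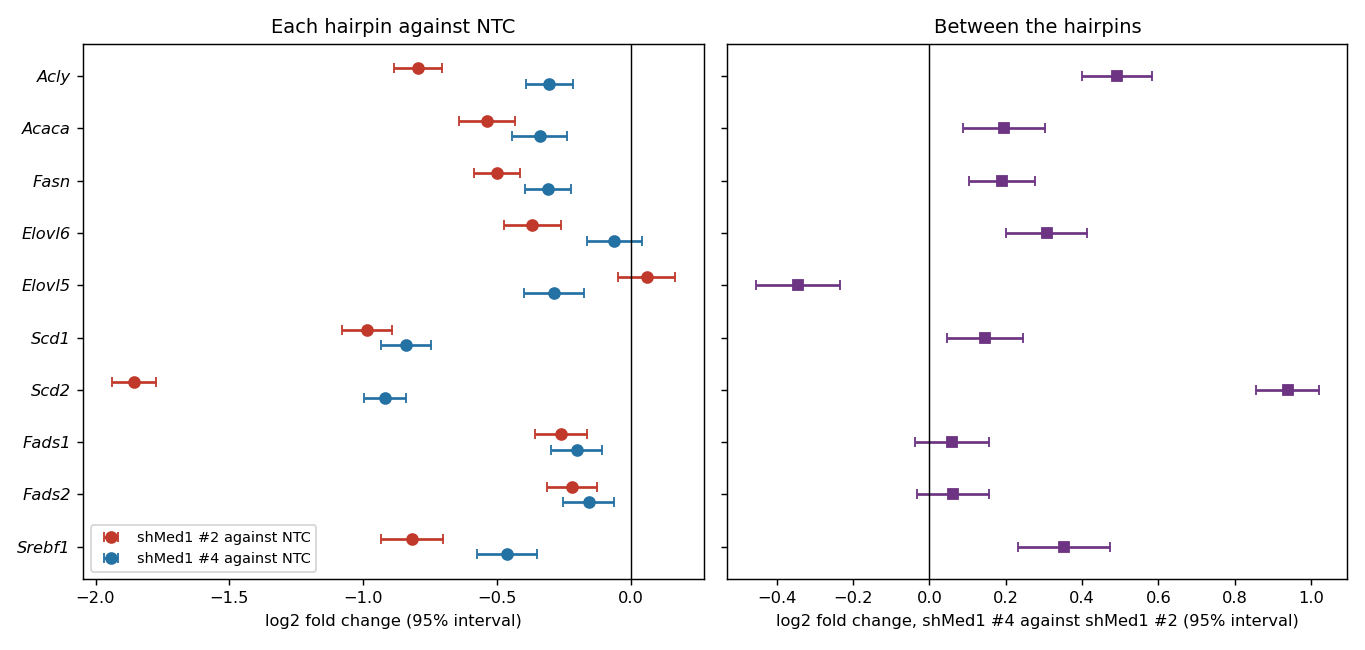
Log2 fold changes of the 10 genes with 95% intervals, each hairpin against NTC on the left and shMed1 #4 against shMed1 #2 on the right. The intervals of Elovl5 with shMed1 #2 and of Elovl6 with shMed1 #4 include 0, and on the right 7 genes lie above 0, Elovl5 lies below, and the intervals of Fads1 and Fads2 include 0.

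Compared directly, 7 of the 10 members were higher with shMed1 #4 than with shMed1 #2 (Acly, Acaca, Fasn, Elovl6, Scd1, Scd2 and Srebf1), and Elovl5 was lower. Of all tested genes 26% were called in this comparison, 12.9% higher and 13.1% lower. The median difference over the members was 0.19, and over all tested genes 0.01. For Med1 itself the difference between the hairpins did not pass the test (0.10, 95% interval -0.08 to 0.28, adjusted p = 0.461). On the mean of both hairpins all 10 members were called lower, Elovl5 with the limits given above; of all tested genes 39.9% were called, 20.2% lower and 19.7% higher. Within groups the members' CPM varied with a coefficient of variation of 0.405% to 7.46%.

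Levels of different genes were compared per kilobase of merged exons. In NTC cells Scd2 stood first at 174 ± 3.47 CPM per kilobase (SD, n = 3). Scd1 (56.2 ± 2.81), Fasn (52.9 ± 3.63), Acly (50.4 ± 1.09) and Fads2 (49.2 ± 1.56) followed, and each of these overlapped the next. Fads1 (35.9 ± 1.04) and Elovl5 (30.6 ± 0.837) came after them without overlap, then Srebf1 (20.8 ± 0.927) and Elovl6 (19.3 ± 1.07), which overlapped, and Acaca was last (8.35 ± 0.347). With shMed1 #2 the order changed: Scd2 was at 47.9 CPM per kilobase, only a little above Fads2 at 42.3 and Fasn at 37.4, though the 3 did not overlap, and Scd1, at 28.4, had a lower mean than Elovl5, Fads1 and Acly, with a range that overlapped those of Fads1 and Acly. With shMed1 #4 Scd2 was at 91.9, Fads2 at 44.1, Fasn at 42.7 and Acly at 40.8 CPM per kilobase, and Scd1, at 31.4, came after these and overlapped Fads1. Scd1 and Scd2 together made up 46.2% ± 0.884 of the members' summed level per kilobase in NTC, 27.3% ± 0.722 with shMed1 #2 and 35.5% ± 0.696 with shMed1 #4. The pair's own sum was 229.9, 76.3 and 123 CPM per kilobase, and that of all 10 was 497, 279 and 347. With the length of the longest transcript in place of merged exons, Acaca was at 14.99 CPM per kilobase in NTC, still the lowest of the 10, and Acly (60.1) and Fasn (57.6) stood above Scd1 (56.9).

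**Figure D3:**
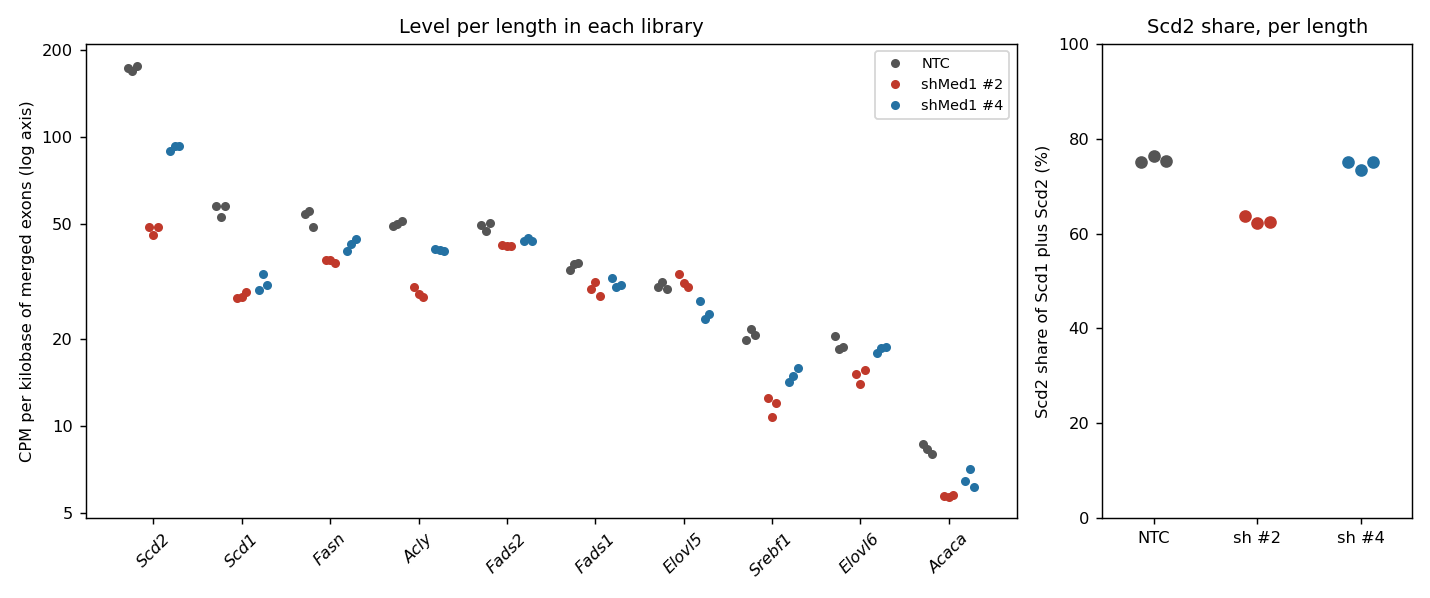
Left, level of each gene in CPM per kilobase of merged exons on a log axis, with 1 point per library of the 3 groups; right, the share of Scd2 in the sum of Scd1 and Scd2 per library, in percent. Scd2 drops from 174 to 47.9 CPM per kilobase with shMed1 #2, and its share from 75.6% to 62.8%.

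The genes that feed the pathway fell with Acly in part. Of 6 genes for acetyl-CoA and NADPH supply, 3 were lower and 2 higher with shMed1 #2, and 4 lower and 1 higher with shMed1 #4 (median -0.33 and -0.32). For this and the next 2 lists, the shares over all tested genes were 21.9% lower and 21.8% higher with shMed1 #2. With shMed1 #4 they were 14.1% and 14%. Idh1, the cytosolic isocitrate dehydrogenase that yields NADPH, was at 46.3 to 55.9 CPM in NTC and fell (-1.01 and -0.50), and so did Acss2, which makes acetyl-CoA from acetate (-0.81 and -0.57), and Slc25a1, the mitochondrial citrate carrier (-0.70 and -0.43). Me1, the malic enzyme, rose with shMed1 #2 (0.31), and Pgd, of the pentose phosphate pathway, fell with shMed1 #4 (-0.21). G6pdx, the entry enzyme of that pathway, rose (0.13 and 0.26), though with shMed1 #2 its call was lost under upper quartile scaling (adjusted p = 0.0654), by library size alone (0.137) and without NTC replicate 2 (0.0541) or shMed1 #2 replicate 2 (0.0738). Of 3 tested partners and counter-enzymes of the carboxylase, all 3 were lower with shMed1 #2 and 1 with shMed1 #4. Mid1ip1, which promotes polymerisation of acetyl-CoA carboxylase, fell by 0.80 and by 0.20, the latter not called without NTC replicate 3 (adjusted p = 0.355), without shMed1 #4 replicate 1 (0.18) or replicate 3 (0.0535), or with DESeq2 (0.128) or no filter (0.0581). Mlycd, the malonyl-CoA decarboxylase that reverses the Acaca step, fell with shMed1 #2 (-0.86), and its value with shMed1 #4 was -0.40 (adjusted p = 0.194). Acacb, the carboxylase of the mitochondrial surface, fell with shMed1 #2 (-0.63) and was at -0.32 with shMed1 #4 (adjusted p = 0.218); both were under 8 CPM. Of 6 tested genes of the separate mitochondrial fatty acid synthesis pathway 3 were lower with shMed1 #2, among them the malonyl transferase Mcat (-0.40) and the acyl carrier Ndufab1 (-0.26), which were at -0.17 and -0.11 with shMed1 #4 (adjusted p = 0.236 and 0.2). The third was the reductase Mecr (-0.21), whose call was lost in 7 alternatives, with adjusted p = 0.201 without shMed1 #2 replicate 3.

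Other desaturases and elongation enzymes went both ways. Among all tested genes, 21.9% were lower and 21.8% higher with shMed1 #2, and 14.1% and 14% with shMed1 #4. Of 10 tested other desaturases and electron donors, 3 were lower and 2 higher with each hairpin, with medians of -0.03 and -0.06. Fads3, the third gene of the Fads cluster, was at 47.2, 53.7 and 47.9 CPM in NTC, at 11.2, 12.8 and 8.99 CPM with shMed1 #2, and 28.6, 29.1 and 29.8 CPM in the shMed1 #4 libraries. Its 3 groups were separate, and it fell with shMed1 #2 (-2.18, SE 0.09996, adjusted p = 7.93e-33) and with shMed1 #4 (-0.76, SE 0.0837, adjusted p = 3.06e-12). Cyb5r1, a cytochrome b5 reductase, fell (-0.21 and -0.36), its relative Cyb5r3 fell with shMed1 #2 (-0.16), and the cytochrome Cyb5b fell with shMed1 #4 (-0.16). Cyb5r4 rose with shMed1 #2 (0.22), a call lost without NTC replicate 1 (adjusted p = 0.0501) or shMed1 #2 replicate 3 (0.135). Degs1, the desaturase that completes ceramide synthesis, rose (0.69 and 0.43), and Degs2, its paralog, rose with shMed1 #4 (0.63) and was at 0.31 with shMed1 #2 (adjusted p = 0.104). Of 8 tested other elongases and elongation-cycle genes, 2 were lower and 2 higher with shMed1 #2, and 1 lower and 2 higher with shMed1 #4. The dehydratase Hacd1 rose (0.83 and 0.67), and so did the ketoacyl reductase Hsd17b12 (0.28 and 0.23). Tecr, the enoyl reductase that closes each cycle, fell (-0.33 and -0.14), the second of these not called without shMed1 #4 replicate 3 (adjusted p = 0.0712). Hacd2, another dehydratase, was lower with shMed1 #2 (-0.18), a call lost without NTC replicate 3 (adjusted p = 0.371), without shMed1 #2 replicate 2 (0.08) or replicate 3 (0.279), and with DESeq2 (0.124), no filter (0.0714) or a replicate block (0.0518).

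**Figure D4:**
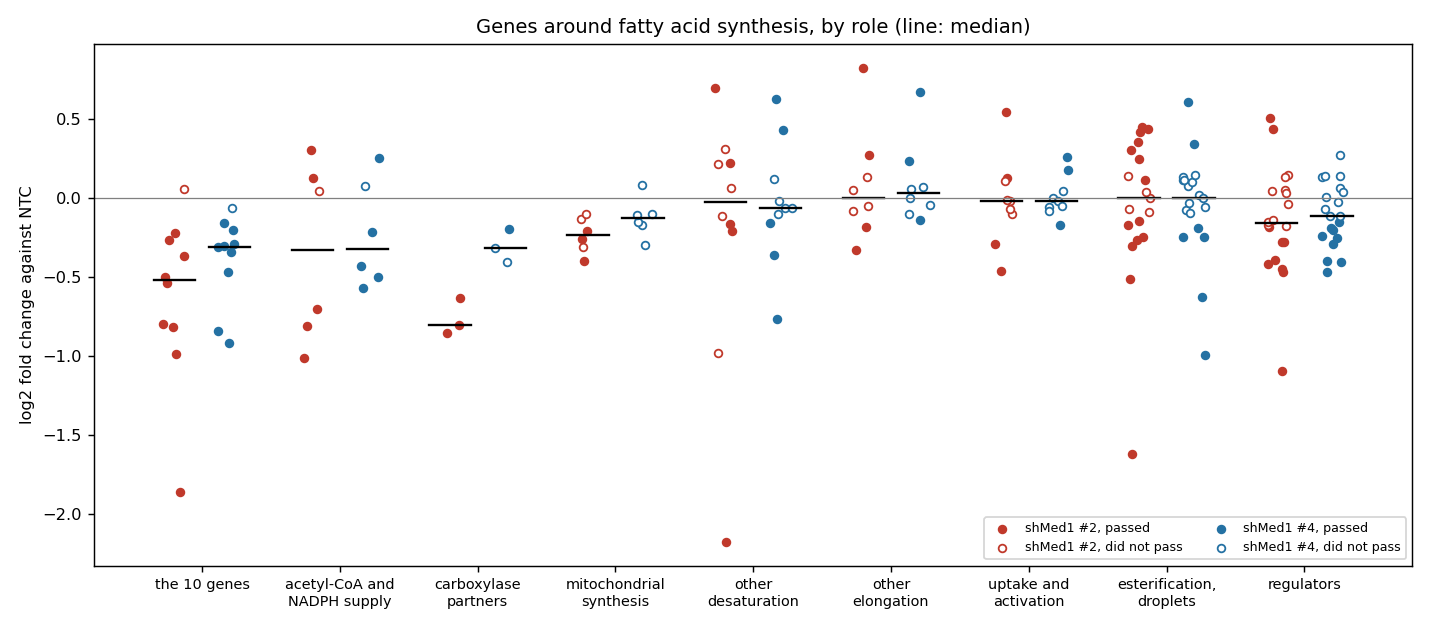
Log2 fold change against NTC of the 10 members and of the tested genes of the other fatty acid lists, 1 column per list, with a point per gene and hairpin. The members lie mostly below 0, from -1.86 to 0.06 with shMed1 #2, while the lists for desaturation, elongation, uptake and esterification spread to both sides of 0.

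Downstream of synthesis the lists were mixed. Of 19 tested genes of esterification and lipid droplets, 7 were lower and 7 higher with shMed1 #2, and 5 lower and 2 higher with shMed1 #4 (medians -0.00 and 0.00). The all-gene shares beside this list and that of uptake were 21.9% lower and 21.8% higher with shMed1 #2, and 14.1% and 14% with shMed1 #4. Lpin1, the phosphatidate phosphatase before diacylglycerol, fell (-1.62 and -0.99), and Mboat7, which esterifies lysophosphatidylinositol, fell (-0.30 and -0.25). The lysophospholipid acyltransferase Lpcat3 fell with both (-0.27 and -0.25), and Gpat4 and Lpin3 fell with shMed1 #4 (-0.19 and -0.62). Gpam, the mitochondrial glycerol-phosphate acyltransferase, rose (0.44 and 0.34), and Dgat2, which makes triglyceride, rose (0.45 and 0.61); the call of Dgat2 with shMed1 #2 was lost with DESeq2 (adjusted p = 0.0505), without NTC replicate 1 (0.0527) and without shMed1 #2 replicate 3 (0.062). Of 9 tested genes of uptake and activation, 2 were lower and 2 higher with shMed1 #2, and 1 lower and 2 higher with shMed1 #4. Acsl1, an acyl-CoA synthetase, rose (0.55 and 0.26), Acsl3, the synthetase of lipid droplets, fell (-0.29 and -0.17), and the acyl-CoA binding protein Dbi rose with shMed1 #4 (0.18) and was at 0.11 with shMed1 #2 (adjusted p = 0.105). The fatty acid transporters Slc27a3 and Slc27a1 were at -0.46 and 0.13 with shMed1 #2, calls lost without 1 of several libraries (adjusted p up to 0.18 and 0.156). Both were also lost with DESeq2 (adjusted p = 0.0793 and 0.0758), and that of Slc27a1 by library size alone (0.196). The 3 calls with shMed1 #4 each failed when 1 of several libraries was left out, with adjusted p-values up to 0.104 for Acsl1, 0.15 for Acsl3 and 0.113 for Dbi.

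Several regulators around Srebf1 were lower as well. Of 20 tested regulators of SREBP-1 and lipogenic transcription, 8 were lower and 2 higher with shMed1 #2, and 9 were lower with shMed1 #4, 7 of them with both (medians -0.16 and -0.11). Over all tested genes the shares were 21.9% lower and 21.8% higher with shMed1 #2, 14.1% lower with shMed1 #4, and 10.1% lower with both. Insig1, the endoplasmic reticulum anchor of SREBP and itself a known SREBP target, was at 78.3 to 84.9 CPM in NTC, 35.5 to 40.7 CPM with shMed1 #2 and 54.8 to 63.9 CPM with shMed1 #4. Srebf2, the paralog that favours cholesterol genes, fell by 0.47 and by 0.25, and Mbtps1, the first protease that cleaves SREBP, fell by 0.28 and by 0.40. Rxrb, a partner of the LXR receptors that induce Srebf1, fell by 0.39 and by 0.40. Scap, the sterol sensor that escorts SREBP, fell by 0.41 and by 0.19, and Nfya, a subunit of the factor that binds CCAAT boxes, fell by 0.28 and by 0.24. Sp1, which binds GC boxes, fell by 0.18 and by 0.15, the latter not called without NTC replicate 2 (adjusted p = 0.13) or shMed1 #4 replicate 1 (0.101). Nr1h2, an LXR receptor, was lower with shMed1 #2 (-0.45), and Mbtps2, the second SREBP protease, was higher with shMed1 #2 (0.44). Usf2, an E-box factor, was lower with shMed1 #4 (-0.29) and at -0.18 with shMed1 #2 (adjusted p = 0.0533, and from 0.0128 to 0.516 over the alternatives, some of which called it). Nfyc was at -0.20 with shMed1 #4 and the coactivator Ppargc1b at 0.50 with shMed1 #2, calls lost without 1 of several libraries (adjusted p up to 0.11 and 0.252). Both were also lost with DESeq2 (adjusted p = 0.0688 and 0.124). The Ppargc1b call was lost too with upper quartile scaling (0.0583), library size alone (0.0691) and no filter (0.0709).

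Scd1 and Scd2, and Fads1 and Fads2, lie with their paralogs in 2 clusters on chromosome 19, so the genes around them were read in the same fit. For comparison with both clusters, 21.9% of all tested genes were called lower and 21.8% higher with shMed1 #2, and 14.1% and 14% with shMed1 #4. Within 200 kb of the Scd cluster (44203269 to 44407879) 8 neighbours were tested. Of these, 1 was lower and 3 higher with shMed1 #2, and 1 was higher with shMed1 #4, with medians of 0.18 and 0.08. Ndufb8, a subunit of respiratory complex I, rose with both (0.32 and 0.41). With shMed1 #2 Chuk, an IkB kinase, fell (-0.41), and Erlin1, a lipid raft protein of the endoplasmic reticulum that binds cholesterol, rose (0.31), as did Hif1an (0.18), the last call lost without 1 of 4 libraries (adjusted p up to 0.0639) and by library size alone (0.103). Around the Fads cluster (10041569 to 10196877) 10 neighbours were tested, of which 2 were lower and 2 higher with each hairpin, with medians of 0.08 and 0.10. Fen1, a flap endonuclease that lies beside Fads1, rose with both hairpins (0.32 and 0.16), and Fth1, the ferritin heavy chain, fell by 0.12 and by 0.10. Tmem258 fell (-0.38) and Gm10143 rose (0.21) with shMed1 #2, Incenp rose with shMed1 #4 (0.18), and Syt7 was lower with shMed1 #4 (-0.68), not called without NTC replicate 3 (adjusted p = 0.109). That Syt7 call was also lost with DESeq2 (adjusted p = 0.0921) and without shMed1 #4 replicate 2 (0.065) or replicate 3 (0.0589). The shMed1 #4 calls were lost without NTC replicate 1 for Fen1 (adjusted p = 0.275) and without NTC replicate 3 for Fth1 (adjusted p = 0.559, and 0.311 with shMed1 #2). Both were also lost with DESeq2 (adjusted p = 0.116 and 0.112) and in several other settings. Among these were library size alone for Fen1 (0.098) and a replicate block for Fth1 (0.0712). Around the Scd cluster the 1 neighbour called lower, Chuk, fell less than Scd1 and Scd2. Around the Fads cluster, Tmem258 with shMed1 #2 and Syt7 with shMed1 #4 had lower values than Fads1 and Fads2 in the same comparison.

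**Figure D5:**
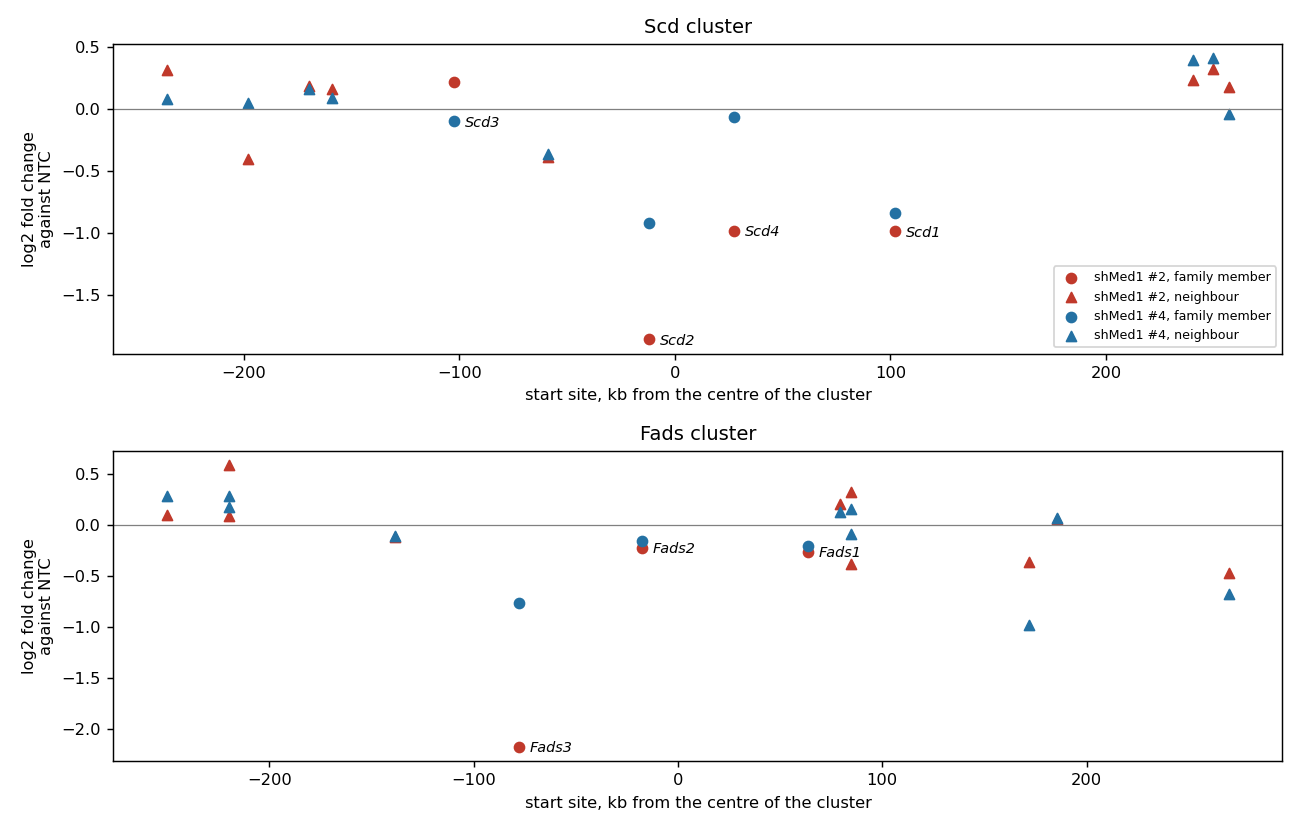
Log2 fold change against NTC of the tested genes in and within 200 kb of the Scd and Fads clusters, by the distance of each start site from the centre of the cluster in kilobases, with a point per hairpin. Scd1 and Scd2 in the first panel lie below every called neighbour with both hairpins, and in the second panel Fads3 is at -2.18 with shMed1 #2 and at -0.76 with shMed1 #4, near Syt7 at -0.68.

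The genes whose levels ran most like those of Scd2 were sought among 8529 other genes whose log2 CPM averaged 4 or more, by Pearson's correlation of log2 CPM over the 9 libraries. They were Cp, the ferroxidase ceruloplasmin (r = 0.998, with fold changes of -2.07 and -1.11), Pdia4, a protein disulfide isomerase (0.997, -1.16 and -0.58), Vcam1, a cell adhesion molecule (0.996, -2.56 and -1.11), Calr, the chaperone calreticulin (0.995, -0.74 and -0.31), and Slit2, a guidance ligand (0.995, -1.70 and -0.88). For Srebf1 they were Syvn1, a ubiquitin ligase of the endoplasmic reticulum (r = 0.991, -0.87 and -0.51), Pcyt2, of phosphatidylethanolamine synthesis (0.990, -0.84 and -0.54), Nucb1, a calcium-binding Golgi protein (0.989, -0.68 and -0.37), Runx2, a transcription factor (0.989, -0.33 and -0.21), and P4hb, a protein disulfide isomerase (0.988, -0.30 and -0.21). The 9 libraries fall into 3 groups, which these genes rank in the same order, and the values are given as a description only.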

How the data were processed

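Total RNA of 9 samples, treated with DNase during automated extraction, was sequenced on a BGISEQ-500, per the labels' protocols. The authors deposited raw counts per gene, 1 table per sample; the tools were STAR and HTSeq on GRCm38 (mm10), per the submitters' processing notes. Tool versions, annotation and strandedness: not given in the sources used here. Symbols and exon lengths came from GENCODE vM21 on the same build; 54587 identifiers matched exactly, and 55154 once the version was dropped. The members and the gene lists were chosen with earlier results of these data known.

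All genes were fitted together with edgeR 4.0.16 (R 4.3.3): the filter by group, TMM scaling (factors 0.982 to 1.02), 1 coefficient per group, the robust quasi-likelihood test and Benjamini-Hochberg adjustment over the 13611 genes tested, with calls at an adjusted p under 0.05. The biological coefficient of variation was 3.68%. Standard errors are the log2 fold change divided by the root of F. CPM used scaled library sizes; levels per kilobase divide CPM by merged exon length. Replicates differed beyond counting noise (chi-square per degree of freedom 1.55 to 2.53). Lists other than the members name up to 4 genes each, first those called the same way with both hairpins, then those called on their mean, by size on the mean; Near copies, markers, Scd3, Scd4, Rai1 and the other called genes of the lists and clusters were named after their values were seen. A gene of the regulator list is not reported here and is left out of its counts. The script was tested on simulated counts. Alternatives were other scalings, other filters, DESeq2 1.42.0, a replicate block, a non-robust fit, a fit of the compared groups alone, the longest transcript as length, and leaving out each library.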

Additional observations from a re-analysis of the deposited data

How the results depend on the processing

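The calls of all 10 members against NTC, for each hairpin, kept their direction and their side of the threshold in the 18 alternatives run, Fads2 with shMed1 #4 by the smallest margin (adjusted p up to 0.0381). Scd2 ranged from -1.91 to -1.83 with shMed1 #2 and from -0.94 to -0.90 with shMed1 #4. Among 5530 values for 78 named genes under alternatives, 5300 kept their call, 195 lost it, 35 gained one and 0 reversed. The calls lost on members were those of Elovl5 on the mean of both hairpins and of Scd1 and Acaca between the hairpins; the cause was not tested. Counts of the short lists moved more than 1.5 times most often for uptake and activation (18 of its counts of higher and 11 of lower genes), since 1 gene decides such counts. Other scalings shifted the median of all genes by at most 0.0481 in size (-0.05 by library size alone with shMed1 #2). With the longest transcript as length, the levels in NTC moved to 60.1 CPM per kilobase for Acly, 14.99 for Acaca, 57.6 for Fasn, 20.9 for Elovl6, 38.7 for Elovl5, 49.97 for Fads1, 51.5 for Fads2 and 27.2 for Srebf1. Same-numbered samples did not deviate together (correlations -0.0413 to 0.0416 over 9 pairs, and 3 of 9 libraries correlated best with their own number), so the numbers are not taken as pairs; with a replicate block, the members called lower stayed at 9, 9 and 10 for shMed1 #2, shMed1 #4 and their mean, and between the hairpins 7 were higher and 1 lower. The differences between the hairpins for Fads1 and Fads2 did not pass in any of the 18 alternatives run.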
